A study of Mus musculus with 10 samples.

Results

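Secreted protease inhibitors were examined in the hippocampus of aged mice on a control or a calorie restricted diet. The genes were Serpina3n, Slpi, Cst3, Serpini1, Serpine2, Serpinh1, Timp2, Timp3, Timp4 and A2m, and every probe set (short probes read together for 1 transcript) that the platform annotation assigned to only 1 of them was taken. This gave 14 of 12422 probe sets, for 8 of the 10 genes, where the annotation names 8251 genes in all. Serpine2 and Timp4 had none and were dropped. Of the 14, 9 passed the filter on low signal and were tested. The genes were chosen partly by their diet changes on these same arrays, whose results were known, among them the lower signal of Serpina3n and the opposite directions of the Slpi probe sets. Changes, adjusted p-values and counts of members below are therefore a description of these arrays and no independent support.

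Hippocampal total RNA was taken at 30 months of age from male mice of the strain C57BL/6, with no genotype or transgene named in the labels. The groups were 5 mice on a control diet and 5 mice under long-term calorie restriction, with 1 mouse on each Affymetrix array. The sources used here do not give the degree or the start of the restriction. The neuron markers Calb1 and Wfs1 were above the filter in both diets, while Prox1, a transcription factor of granule neurons, was below it. Other neuron markers differed between the diets. In calorie restricted mice Syt1, Nptx1, Nefl and Neurod6 were lower and Tbr1 was higher, as given below with the cell markers. RNA of the whole hippocampus was measured, so fewer cells of a type and less RNA per cell cannot be told apart.

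Proteases are kept in check by several families of secreted inhibitors. Serpins offer a loop that a serine protease cuts and then trap the enzyme by changing shape, cystatins plug the cleft of cysteine cathepsins, and Timps block the zinc site of matrix metalloproteases. In brain, Serpina3n is known as a gene that reactive astrocytes switch on, Serpini1 (neuroserpin) as a neuronal inhibitor of tissue plasminogen activator, and Cst3 (cystatin C) as an abundant protein of cerebrospinal fluid.

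The promoters of Serpina3n and Slpi are shown because these are the members whose signals separated the diets. They are the 250 bases before and 50 bases after the annotated start of the gene, from RefSeq on build GRCm38.p6, 5′ to 3′ on the gene's own strand. Capitals mark matches, on either strand, to 5 motifs. The STAT motif was searched as TTCNNNGAA. NF-kappaB was searched as GGG and TTTCC with any 2 bases between them, and the glucocorticoid receptor as GNACA and TGTNC with any 3 bases between them. For AP-1 the letters were TGANTCA. For the TATA box they were TATAAA.
Serpina3n, chr12:104406458-104406757, plus strand: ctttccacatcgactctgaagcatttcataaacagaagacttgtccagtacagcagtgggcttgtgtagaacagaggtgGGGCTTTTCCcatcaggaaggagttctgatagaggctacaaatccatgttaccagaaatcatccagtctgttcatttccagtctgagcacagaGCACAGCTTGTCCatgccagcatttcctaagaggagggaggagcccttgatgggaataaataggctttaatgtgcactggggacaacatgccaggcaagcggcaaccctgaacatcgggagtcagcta
Slpi, chr2:164356458-164356757, minus strand: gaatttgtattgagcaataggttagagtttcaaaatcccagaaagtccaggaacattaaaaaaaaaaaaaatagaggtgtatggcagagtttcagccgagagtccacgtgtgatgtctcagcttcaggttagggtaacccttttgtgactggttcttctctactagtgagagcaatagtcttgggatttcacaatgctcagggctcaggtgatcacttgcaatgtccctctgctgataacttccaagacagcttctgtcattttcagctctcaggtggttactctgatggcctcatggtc

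The Serpina3n window held 1 match to the NF-kappaB letters, GGGCTTTTCC, which starts at position -171 from the gene's start, and 1 to the glucocorticoid receptor letters, GCACAGCTTGTCC, which starts at -78. Of 32851 RefSeq promoters of the same length, 1.63% held the first motif and 0.475% the second. The STAT, AP-1 and TATA box letters, present in 8.30%, 7.81% and 13.6% of promoters, did not occur in that window, and none of the 5 motifs occurred in the Slpi window. The same search found no match in the promoters of Cst3, Serpini1, Serpine2, Serpinh1, Timp2, Timp3 and Timp4. A match is a description of letters and not a bound site. The deposited data hold no measurement at these promoters.

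The diet comparison asked which transcripts differ between calorie restricted and control mice. Values are log2 signals, in which a step of 1 is a doubling. A change is the calorie restricted mean minus the control mean. From each printed change of this fit the median over the 7453 tested probe sets, -0.15, has been taken off. Under an alternative the median of that alternative's own fit was taken off instead. It was -0.02 under quantile normalization, 0.20 with array medians centred and -0.10 without calorie restricted replicates 3 and 5. Standard errors (SE) and adjusted p-values (Benjamini-Hochberg over 7453 tested probe sets) come from limma, whose test is of the change before that median is taken off. A probe set was called at an adjusted p under 0.05. Of all tested probe sets 11.8% were called, 4.11% higher and 7.74% lower, and in 14.3% the diets did not overlap. An unadjusted limma p under 0.05 was found for 31.6% of them. Of the 9 tested member probe sets 4 were called: Serpina3n, 1 of Slpi and 1 of Timp2 were lower and Serpini1 was higher. The median relative change of the 9 was 0.41, against 0 by construction over all tested probe sets, with 5 above 0 and 4 below. The diets did not overlap in 2 of the 9, both lower, where 9.35% of all tested probe sets lay fully lower and 4.96% fully higher.

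RNA and array quality moved with the diet. The log2 ratio of 3′ to 5′ signal, averaged over the control probe sets of Gapdh and Actb, was -0.12 to 0.45 in control mice. It was 5.20 and 6.11 in calorie restricted replicates 3 and 5 and 0.78 to 1.52 in the other calorie restricted mice (exact two-sided permutation p = 0.00794, the smallest that 5 against 5 arrays allow; adjusted p = 0.0106 over 4 measures). Since the ratio of every calorie restricted array was above that of every control array, RNA quality and diet cannot be told apart over all 10 arrays. Spike-in signal was also without overlap, at 10.50 to 11.80 in control and 12.41 to 13.67 in calorie restricted mice. The total number of calls was 883, or 783 without calorie restricted replicates 3 and 5, and it ran from 253 to 1251 with 1 array left out. The lowest count came without control replicate 2 and the highest without calorie restricted replicate 2, and it was below 883 by over 1.5 times without control replicate 1, 3, 4 or 5 and without calorie restricted replicate 3 or 4 (421, 274, 301, 553, 349 and 561).

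Among the serpins, Serpina3n gave the clearest separation of the diets. Its log2 signal was 10.93, 11.35, 11.23, 11.12 and 11.40 in control replicates 1 to 5. In calorie restricted replicates 1 to 5 it was 9.94, 9.22, 10.08, 10.47 and 9.93. Every calorie restricted mouse lay below every control mouse, with a gap of 0.46 between the nearest mice of the 2 diets. The control mean was 11.21 ± 0.19 and the calorie restricted mean 9.93 ± 0.45 (SD, n = 5 each), so the spread was 2.41 times as large under restriction. The relative change was -1.13 ± 0.22 (SE; 95% interval -1.60 to -0.65), or 2.18 times lower (limma adjusted p = 0.00819).

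The Serpina3n values were also set beside RNA quality, whose part in them cannot be told apart from the diet. Leaving out calorie restricted replicates 3 and 5 gave a relative change of -1.23 (limma adjusted p = 0.0106), and a fit with the RNA quality ratio as a covariate gave -1.30 (limma adjusted p = 0.0205). The lowest of all mice was calorie restricted replicate 2, whose RNA ratio of 0.78 was the lowest of its diet. When the spike-in signal joined the RNA ratio in the fit, the change was -0.42 and was not called (limma adjusted p = 0.666); in that fit 0 of the 7453 probe sets were called, with 907 at an unadjusted p under 0.05.

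Serpini1, neuroserpin, went the other way. Its log2 signal was 12.38, 12.02, 11.57, 11.80 and 12.42 in control replicates 1 to 5 and 12.92, 12.76, 12.96, 12.25 and 12.83 in calorie restricted replicates 1 to 5. Replicate 4 of the calorie restricted mice lay inside the control range, and the other 4 lay above it. The relative change was 0.86 ± 0.21 (SE), 1.82-fold higher. Before the median was taken off, it was 0.71. With a mean log2 signal of 12.39, Serpini1 was among the brightest 1491 tested probe sets. Their median change was 0.13 before any median was taken off. Serpini1 was called (limma adjusted p = 0.0466). That call is near the threshold: it was lost when any of 8 single arrays was left out, namely control replicates 1 to 4 and calorie restricted replicates 1, 2, 3 and 5, with changes of 0.75 to 0.95 and limma adjusted p of 0.0565 to 0.112. Under quantile normalization the change was 0.40 (limma adjusted p = 0.233), and it was 0.71 when calorie restricted replicates 3 and 5 were left out (limma adjusted p = 0.0992). Serpini1 was the only one of the 9 tested probe sets with the smaller spread under restriction, an SD of 0.29 against 0.37, where 76.0% of all tested probe sets had the larger spread in calorie restricted mice.

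Serpinh1, also called Hsp47, belongs to the serpins by sequence but is a collagen chaperone of the endoplasmic reticulum with no protease inhibition. Its mean log2 signal of 6.55 was below the lowest tested, 6.85, so it was not tested. It was 6.56, 7.54, 6.96, 8.03 and 7.38 in control and 6.96, 6.32, 4.69, 7.35 and 3.74 in calorie restricted replicates 1 to 5. The lowest 2 values were those of calorie restricted replicates 3 and 5, the arrays of poor RNA, and the other 3 ran from 6.32 to 7.35, within or just below the control range. The part of RNA quality in this was not tested.

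**Figure D1:**
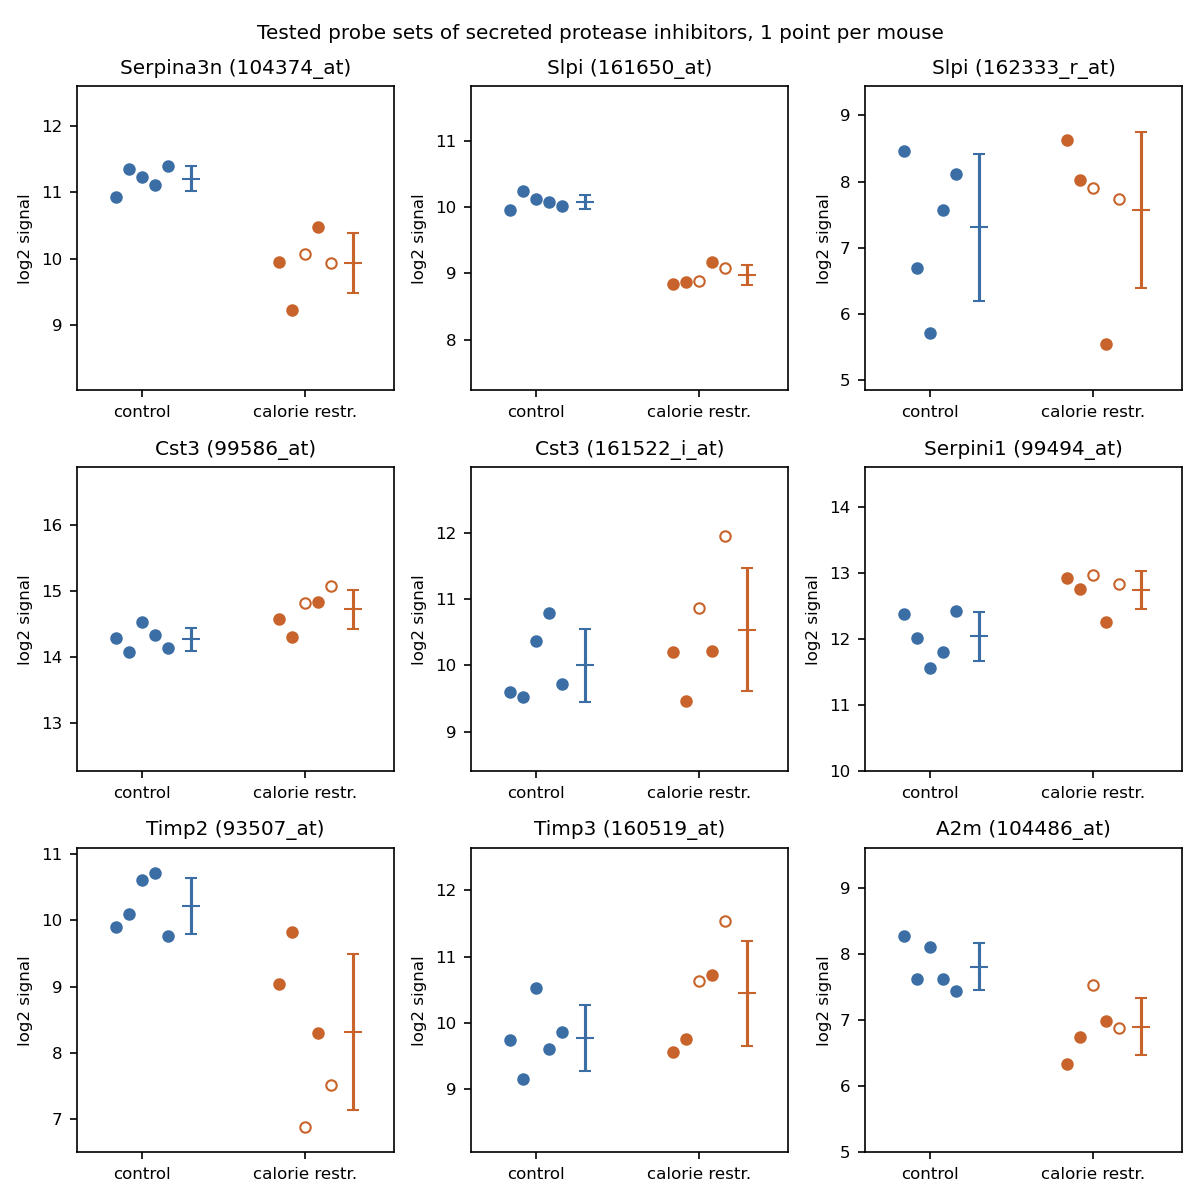
Log2 signal of each of the 9 tested probe sets, 1 panel each, with 1 point per mouse (blue control, orange calorie restricted, open points calorie restricted replicates 3 and 5) and the mean ± SD (n = 5) beside the points. The diets separate fully in Serpina3n and in Slpi 161650_at.

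Slpi encodes a small secreted inhibitor of neutrophil elastase and cathepsin G, and its 4 probe sets did not tell 1 story. Probe set 161650_at had log2 signals of 9.95, 10.24, 10.12, 10.08 and 10.01 in control replicates 1 to 5. In calorie restricted replicates 1 to 5 it had 8.84, 8.87, 8.89, 9.18 and 9.09. The diets were 0.78 apart at their nearest mice, and the SD was 0.11 in control and 0.15 in calorie restricted mice. The relative change was -0.96 ± 0.15 (SE; 95% interval -1.28 to -0.63), or 1.94 times lower (limma adjusted p = 0.00442).

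The other 3 Slpi probe sets showed no such separation. Probe set 162333_r_at had 8.46, 6.69, 5.72, 7.57 and 8.12 in control and 8.63, 8.02, 7.90, 5.54 and 7.74 in calorie restricted replicates 1 to 5. Its relative change was 0.41 ± 0.62 (SE; 95% interval -0.94 to 1.76; limma adjusted p = 0.798). Both probe sets below the filter were dim and overlapped between diets. Probe set 92858_at had 6.65, 6.65, 7.46, 4.38 and 6.10 in control and 6.89, 7.45, 6.81, 6.57 and 5.02 in calorie restricted replicates 1 to 5. Probe set 162329_r_at ran from 4.06 to 6.88 in control and from 4.82 to 6.45 in calorie restricted mice.

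The annotation ties 161650_at and both probe sets with r in their name to accessions with the prefix AV, which is used for single-pass cDNA reads, and 92858_at to one with the prefix AF, used for individually submitted sequences. The letters r and i in a probe set's name mark sets that may rest on fewer probes or match several transcripts. With the 4 probe sets averaged, in a fit of all genes without the filter, the relative change of Slpi was 0.10 ± 0.31 (SE). The tested change, before the median of that fit was taken off, was -0.12 (limma adjusted p = 0.849). Probe sets of 1 gene that point in different directions were common on these arrays: of 908 genes with 2 or more tested probe sets, 458, or 50.4%, had relative changes of both signs, while 7, or 0.771%, had calls in both directions. The lower signal was seen in 161650_at alone of the 4. There it was called at -1.01 when calorie restricted replicates 3 and 5 were left out (limma adjusted p = 0.00367), and at -1.05 in the fit with RNA quality (limma adjusted p = 0.00918). With spike-in signal added as a covariate it was -0.75 and was not called (limma adjusted p = 0.340).

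**Figure D2:**
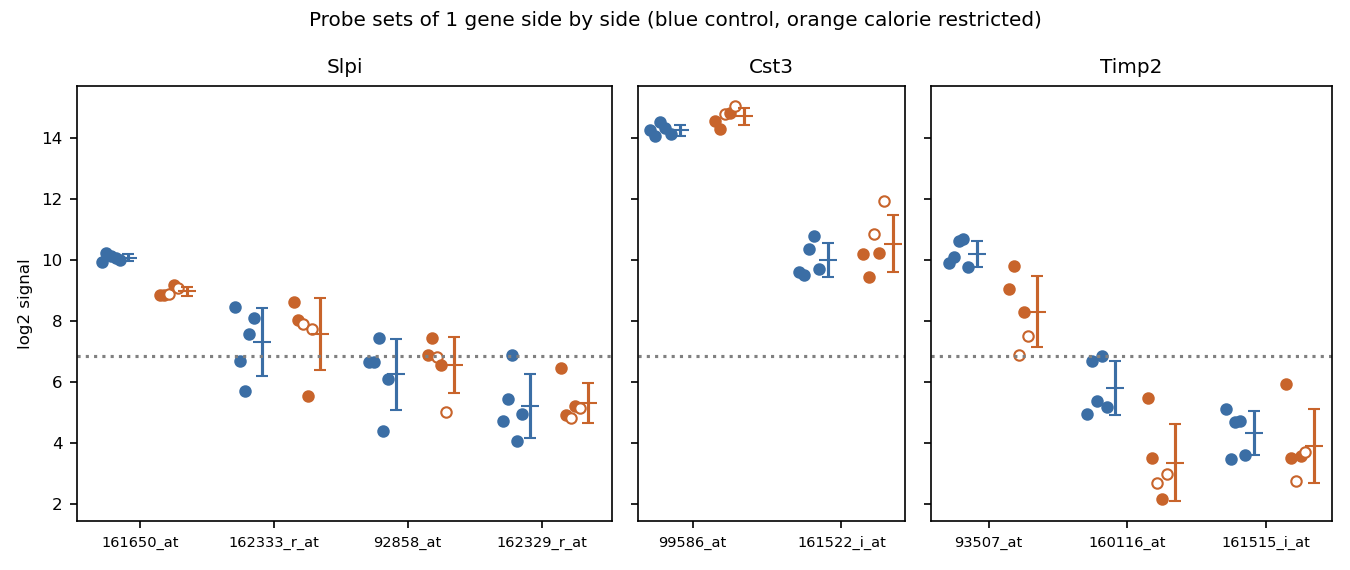
Log2 signal of all probe sets of Slpi, Cst3 and Timp2, side by side, 1 point per mouse (blue control, orange calorie restricted, open points calorie restricted replicates 3 and 5), with the mean ± SD (n = 5) and a dotted line at 6.85, the lowest mean signal tested. Of the 4 Slpi probe sets only 161650_at separates the diets, and levels of different probe sets are not comparable.

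Cst3, cystatin C, blocks cathepsins B, L and S outside the cell. Probe set 99586_at had log2 signals of 14.29, 14.07, 14.53, 14.33 and 14.14 in control and 14.58, 14.31, 14.81, 14.84 and 15.07 in calorie restricted replicates 1 to 5. In 4 of 5 calorie restricted mice it was above all control mice, and replicate 2 was within their range. The relative change was 0.61 ± 0.18 (SE; 95% interval 0.22 to 0.99), and it was not called (limma adjusted p = 0.108). Its sign differed between scalings: it was -0.27 under quantile normalization (limma adjusted p = 0.251), again not called. With arrays centred on their median signal the relative change stayed at 0.61, and the probe set was called (limma adjusted p = 0.0363). The tested change, before the median was taken off, was 0.81 with that centring and 0.45 without it. This probe set was among the brightest 1491 tested, whose median change without that centring was 0.13 before any median was taken off. The other probe set, 161522_i_at, had 9.60, 9.52, 10.37, 10.79 and 9.73 in control and 10.20, 9.46, 10.87, 10.22 and 11.95 in calorie restricted replicates 1 to 5. Its change of 0.69 ± 0.41 (SE) was not called either (limma adjusted p = 0.384). It was 0.063 when calorie restricted replicates 3 and 5 were left out, or -0.041 before the median of that fit was taken off.

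Timp2 inhibits matrix metalloproteases and also helps Mmp14 to activate pro-Mmp2. Probe set 93507_at had log2 signals of 9.90, 10.10, 10.62, 10.71 and 9.77 in control replicates 1 to 5. It had 9.04, 9.83, 6.88, 8.30 and 7.51 in calorie restricted replicates 1 to 5. Replicate 2 of the calorie restricted mice was within the control range and the other 4 were below it. The lowest 2 were replicates 3 and 5. The SD of 1.17 under restriction was 2.76 times the 0.43 of the control mice. The relative change was -1.75 ± 0.47 (SE), or 3.37 times lower (limma adjusted p = 0.0265).

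The Timp2 change is given beside RNA quality, which cannot be told apart from the diet here. Among calorie restricted mice the order of the signal from high to low was replicates 2, 1, 4, 5 and 3, and their RNA ratios were 0.78, 0.79, 1.52, 6.11 and 5.20. Without replicates 3 and 5 the change was -1.06 (limma adjusted p = 0.0451), without replicates 3, 4 and 5 it was -0.69 (limma adjusted p = 0.137), and with the RNA ratio as a covariate it was -0.69 (limma adjusted p = 0.190). The call was also lost without control replicate 2, 3 or 4 (-1.78, -1.65 and -1.62; limma adjusted p = 0.0592, 0.0691 and 0.0687) and without calorie restricted replicate 3 or 4 (-1.39 and -1.75; limma adjusted p = 0.0519 and 0.05003). Under quantile normalization without calorie restricted replicates 3 and 5 the change was -1.04 and was not called (limma adjusted p = 0.0789). With covariates for both RNA ratio and spike-in signal it was -0.79, also not called (limma adjusted p = 0.634). The 3 Timp2 probe sets averaged, in a fit of all genes without the filter, gave -1.38 ± 0.50 (SE, limma adjusted p = 0.0788). A further Timp2 probe set, 160116_at, was below the filter, with 4.95, 6.68, 5.38, 6.85 and 5.16 in control and 5.46, 3.49, 2.69, 2.16 and 2.97 in calorie restricted replicates 1 to 5. There 4 of 5 calorie restricted mice were below all control mice. The dimmest Timp2 probe set, 161515_i_at, ran from 3.48 to 5.13 in control and from 2.74 to 5.94 in calorie restricted mice.

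Timp3 is the Timp that stays bound to the extracellular matrix and also inhibits Adam17. Its log2 signal was 9.73, 9.14, 10.53, 9.61 and 9.86 in control and 9.56, 9.76, 10.63, 10.72 and 11.54 in calorie restricted replicates 1 to 5. The highest 3 mice of all were calorie restricted replicates 5, 4 and 3, and replicates 1 and 2 were inside the control range. The relative change of 0.82 ± 0.36 (SE) was not called (limma adjusted p = 0.225), and without replicates 3, 4 and 5 it was -0.020 (limma adjusted p = 0.854). It was 0.35 without replicates 3 and 5 (limma adjusted p = 0.646) and 0.083 with the RNA ratio as a covariate (limma adjusted p = 0.990). The same replicate 5 held the highest value of both Cst3 probe sets. Timp3 and Timp2 thus lay on opposite sides of the control mean in replicates 3, 4 and 5, the arrays with the 3 highest RNA ratios.

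A2m, alpha-2-macroglobulin, takes proteases of many classes into a cage after they cut its bait region. Its log2 signal was 8.26, 7.62, 8.10, 7.62 and 7.44 in control and 6.33, 6.75, 7.53, 6.98 and 6.88 in calorie restricted replicates 1 to 5. Here 4 of 5 calorie restricted mice were below all control mice, and replicate 3 was among the control values. The relative change was -0.76 ± 0.30 (SE; 95% interval -1.40 to -0.12), and it just missed the threshold (limma adjusted p = 0.0622). Without replicates 3 and 5 it was -1.01 and was called (limma adjusted p = 0.0462), while under quantile normalization it was -0.54 (limma adjusted p = 0.269). With a mean log2 signal of 7.35, A2m was the dimmest member that passed the filter, followed by Slpi 162333_r_at at 7.44. Serpinh1 at 6.55 and Slpi 92858_at at 6.40 were the nearest outside it. A2m and Slpi 162333_r_at were among the dimmest 1491 tested probe sets, whose median change was -0.42 before any median was taken off.

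**Figure D3:**
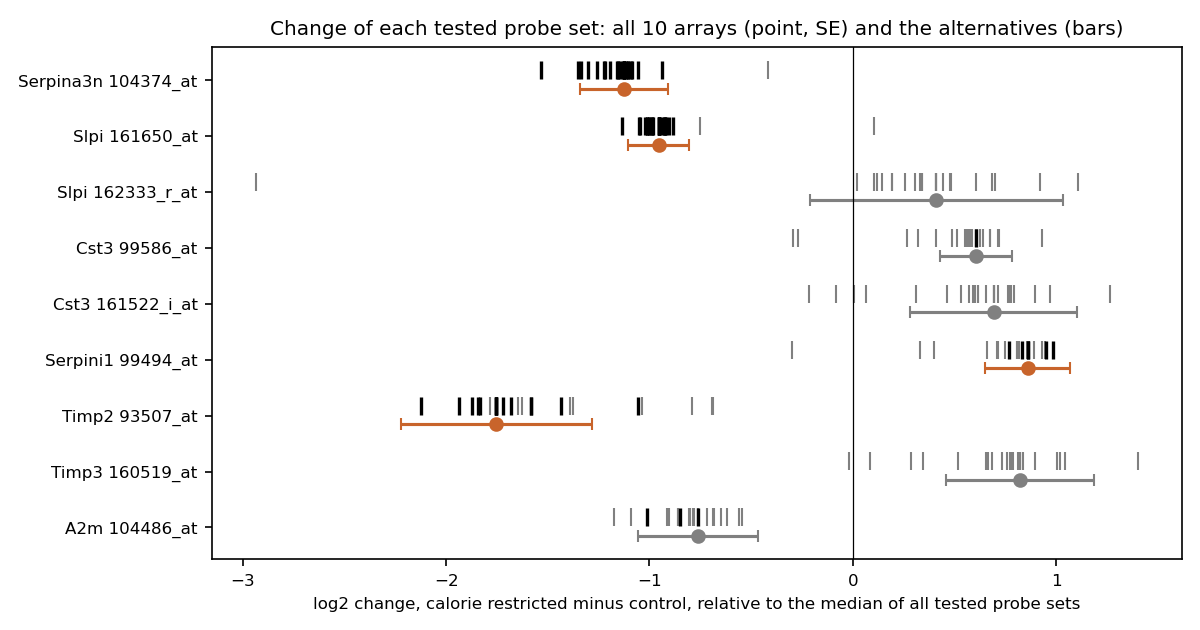
Relative log2 change of each tested member probe set on all 10 arrays (point with SE, orange where called and grey where not) and under each alternative processing or left-out array (bars, black where called and grey where not). Serpina3n and Slpi 161650_at are called in all but 1 or 2 of the alternatives, and the Serpini1 and Timp2 calls come and go.

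Proteases and inhibitors outside the member list were read from 5 lists, with 1 probe set per gene, the one with the highest mean signal. Of 60 genes tested, 2 were called, both lower, or 3.33%, against 11.8% of all tested probe sets. Ctse alone was called when calorie restricted replicates 3 and 5 were left out, at -0.70 (limma adjusted p = 0.0395). Leaving out single arrays moved this number between 0 and 4: it was 0 without control replicate 2, 3, 4 or 5 or calorie restricted replicate 3 or 4, 1 without control replicate 1 or calorie restricted replicate 5, and 4 without calorie restricted replicate 2. The direction of the calls differed between scalings. With array medians centred 3 of the 60 were called, all higher (App, Ctsb and Pebp1), and neither Elane nor Ctse was. With the RNA ratio as a covariate the 1 call was Pcsk1n, higher at 1.03 (limma adjusted p = 0.0441). The median relative change of the 60 was -0.16. Of 8 other serpins, 9 other inhibitors and 11 metalloproteases, 0 were called by limma. At an unadjusted p under 0.05 were 5 of these 28, beside 31.6% of all tested probe sets. Serping1, the inhibitor of complement C1, had -0.93 ± 0.46 (SE; limma adjusted p = 0.133), or -0.56 without calorie restricted replicate 5, and Serpinf2, antiplasmin, -0.47 ± 0.29 (SE; limma adjusted p = 0.157). Serpina6 had -0.29 and Serpina10 -0.33.

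Among the other inhibitors, Pebp1, which binds Raf kinase, had 0.92 ± 0.26 (SE; limma adjusted p = 0.0709), with every calorie restricted mouse above every control mouse. It had 0.55 without calorie restricted replicates 3 and 5 and 0.32 with the RNA ratio as a covariate. Cstb, the intracellular cystatin, had 0.50, Aplp2 -0.60 and App, whose longer forms carry a Kunitz inhibitor domain, 0.39. Timp1, the inducible Timp, had 0.044 ± 0.36 (SE; limma adjusted p = 0.859), so that of the 3 Timps tested 1 was called. Of 11 metalloproteases, the Timp2 partner Mmp14 had -0.47 ± 0.20 (SE; limma adjusted p = 0.0635), Adam11 -1.12, Ide -0.60 and Adam10 -0.15. The other tested probe set of Ide had a relative change of the opposite sign, and that of Adam10 the same sign. Adam11 had -0.69 without calorie restricted replicate 5, -0.27 without replicates 3 and 5 and 0.15 with the RNA ratio as a covariate.

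Of 20 serine proteases and their receptors, 1 was lower: Elane, the neutrophil elastase that Slpi inhibits, at -0.65 ± 0.23 (SE; limma adjusted p = 0.0430). F7 had -0.41, Htra1 -0.29 and Htra2 -0.26, while the other tested Htra2 probe set had a relative change of the opposite sign. Plat, the tissue plasminogen activator that Serpini1 inhibits, had -0.071 ± 0.21 (SE; limma adjusted p = 0.475), and from -0.22 to 0.040 with 1 array left out. Lrp1, the receptor that clears complexes of proteases with serpins or A2m, had -0.27 ± 0.27 (SE; limma adjusted p = 0.305). It had -0.16 without control replicate 4, -0.12 and -0.14 without calorie restricted replicate 3 or 5, 0.094 without both and 0.28 with the RNA ratio as a covariate. Of 12 cathepsins, legumain and calpains, Ctse, an aspartic protease, was lower at -1.18 ± 0.39 (SE; limma adjusted p = 0.0451). Ctsd had -0.68, Lgmn -0.23 and Ctsk -0.61, and the Cst3 targets Ctsb, Ctsl and Ctss had 0.38, 0.31 and 0.29, with none called. Both calls were near the threshold. Without 1 array in turn Elane ran from -0.75 to -0.58 and was called without calorie restricted replicate 1 or 2 (limma adjusted p = 0.0456 and 0.0378). Ctse ran from -1.45 to -0.81 and was called without calorie restricted replicate 1, 2 or 5 (limma adjusted p = 0.0199, 0.0472 and 0.0219). In the other 8 and 7 of 10 cases the limma adjusted p was above 0.05, up to 0.0958 for Elane and 0.1003 for Ctse.

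**Figure D4:**
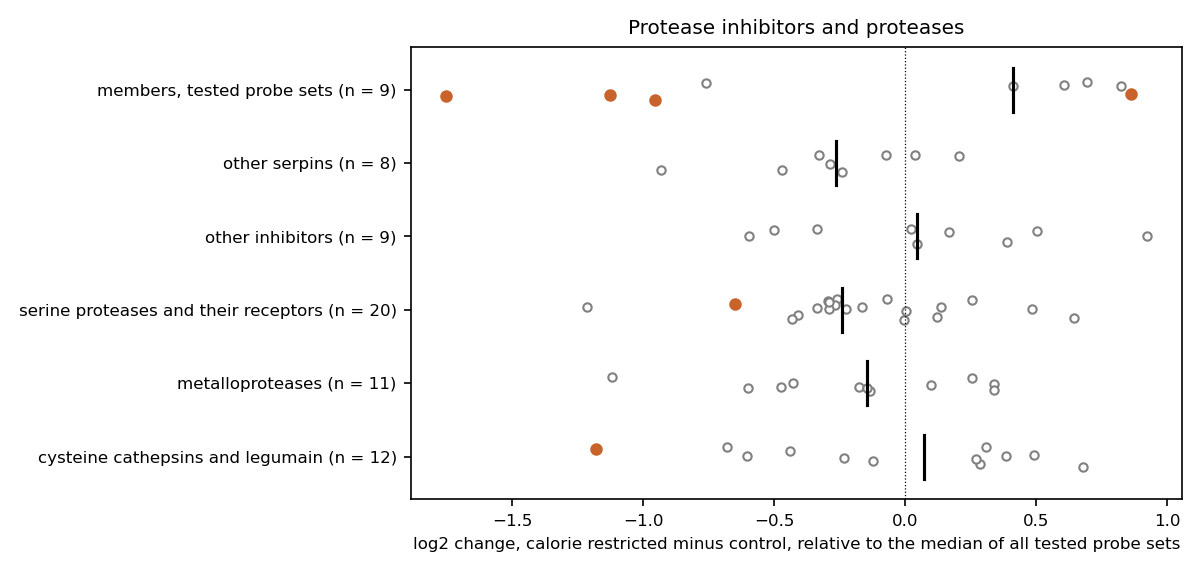
Relative log2 change of the 9 tested member probe sets and of the genes in 5 lists of other inhibitors and proteases (1 point per probe set or gene, orange where called, black bar at the median). Of the 60 listed genes 2 were called, Elane and Ctse, both lower; with array medians centred 3 others were called, all higher.

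Markers of the cells that could supply these transcripts were read on the same arrays. The counts below stand beside 4.11% of all tested probe sets called higher and 7.74% called lower. An unadjusted limma p under 0.05 was found for 31.6% of all tested probe sets. For reactive astrocytes 9 of 10 listed genes had a probe set, with none at the floor of 1. Their mean log2 signal was 7.56 to 8.35 in control and 7.04 to 7.41 in calorie restricted mice, without overlap, and their summed signal was 2633 to 7211 and 3133 to 4613. The median log2 signal of the whole array was also lower without overlap, at 7.79 to 7.92 in control and 7.25 to 7.69 in calorie restricted mice. That shift has not been taken off the mean log2 signals of the marker lists given here. Of the 6 tested, 0 were called by limma, with 2 at an unadjusted p under 0.05. These were Lcn2 at -0.57 and S1pr3 at -0.48 (limma adjusted p = 0.0503 and 0.148). Gfap had -0.17 ± 0.43 (SE, limma adjusted p = 0.627), Vim -0.90 (limma adjusted p = 0.172), Osmr -0.11 and Timp1 0.044. Of 8 other astrocyte markers 1 was higher and 4 lower, with a mean log2 signal of 9.87 to 10.42 and 8.96 to 9.88, and a summed signal of 16470 to 19970 in control and 22800 to 29760 in calorie restricted mice. The higher one was Glul, whose other tested probe set had a relative change of the opposite sign. Of 10 neuronal markers 1 was higher, Tbr1 at 1.37, and 4 were lower. These were Syt1 at -3.40, Nptx1 at -1.73, Nefl at -1.01 and Neurod6 at -1.11. The mean log2 signal of the neuronal list did not overlap either (9.73 to 10.24 in control, 8.56 to 9.65 in calorie restricted mice). Of 7 oligodendrocyte markers 3 were lower. Of 7 meningeal and pericyte markers 1 was lower, Igfbp2 at -1.25 (limma adjusted p = 0.0175), while Ptgds had 1.95 and was not called (limma adjusted p = 0.109). Of 4 endothelial and 3 blood markers 0 were called by limma, with 0 at an unadjusted p under 0.05. Of 9 microglial markers 2 were lower, Cx3cr1 at -0.95 and Cd68 at -0.71. Aif1 had 1.31, with every calorie restricted mouse above every control mouse, and was not called (limma adjusted p = 0.0520). Of 5 choroid plexus and ependymal markers 2 were lower. The summed signal of that list was 3628 to 12090 in control and 1276 to 15760 in calorie restricted mice. The part of these cells in the member changes was not tested.

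Genes whose signal followed the called members from mouse to mouse, after the mean of each diet was taken off, were looked for among 6726 named probe sets of other genes. For Serpina3n these were Slc16a8, Lgals4 and Tcof1 (Pearson r over 10 arrays of 0.939, 0.938 and 0.896). For Slpi 161650_at they were Camk2b, Thrap3 and Uggt1 (0.948, 0.943 and 0.902), for Serpini1 Mrpl18, Sac3d1 and Cfap20 (0.982, 0.943 and 0.937), and for Timp2 93507_at Rab8a, Nfe2l1 and Igkv8-30 (0.989, 0.959 and 0.948). They are the highest of 6726 values each over the same 10 arrays, whose scaling and RNA quality they share, and are given as a description.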

How the data were processed

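Intensity values per probe set, on a linear scale, were deposited by the authors, who computed them with MAS5 per the submitters' processing notes. The sources used here give no version or settings. The mean without the lowest and highest 2% was 500.2 to 500.4 on each array, so overall brightness had been equalised. Values under 1 (41 of 124880) were set to 1 and log2 was taken. After 66 control probe sets were set aside, the 7453 of 12422 with a mean at or above the 40th percentile were tested with limma 3.58.1 in R 4.3.3 (lmFit, eBayes with trend, no covariate). Gene names came from the platform annotation (1 symbol for 10833 probe sets, several for 396, none for 1193), and 10817 of those symbols were matched to RefSeq by gene number. No genome positions of probes were used.

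The members, lists and alternatives were chosen with earlier results of these data known. Named list genes are those called and otherwise, up to 4 per list, those with the smallest p, except Plat, Lrp1, Timp1, Ctsb, Ctsl and Ctss, named as targets, receptors or relatives of members, and the cell markers. The labels do not say whether equal replicate numbers pair the mice, and the main fit used no pairing. Deviations from the diet means correlated over 0.1 in 1 of 5 pairs of equal number (r from -0.076 to 0.17). Such values cannot settle whether the mice were paired. The number of arrays limits the precision. On simulated data with 7453 probe sets for the diet comparison, the fit recovered 4%, 38%, 86% and 92% of 50 probe sets each changed by 0.5, 1, 2 and 3 (log2), with 2 false calls among 112. The simulated noise was independent, with the same SD in both diets and no difference in RNA quality or spike-in signal. On the real arrays the median ratio of SDs, calorie restricted over control, was 1.65. The simulation therefore cannot give the share of false calls on these arrays.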

Additional observations from a re-analysis of the deposited data

Results flagged for a closer look

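In 2 of 36 groups of 5 arrays examined, 1 array stood far from the other 4, where chance gives about 1 in 20. The log2 signal of Slpi probe set 162333_r_at was 5.54 in calorie restricted replicate 4, against 7.74 in the nearest mouse of that diet. The log2 signal of Slpi probe set 162329_r_at was 6.45 in calorie restricted replicate 1, against 5.20 in the nearest. The second of these lay below the filter and was not tested.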

How the results depend on the processing

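Of 219 values of member probe sets under an alternative, 178 kept their direction and side of the threshold, 29 lost the call, 4 gained one and 8 turned direction. Serpina3n was called in 23 of 24 alternatives and Slpi 161650_at in 23 of 25. The 8 turns were turns of the relative change. Slpi 161650_at was at 0.10 with its 4 probe sets averaged, where the change before the median was taken off stayed lower, at -0.12. With covariates for both RNA quality and spike-in signal, Slpi 162333_r_at was at -2.93 and Serpini1 at -0.30. Cst3 99586_at was at -0.27 with quantile normalization and -0.29 with that and no calorie restricted replicates 3 and 5. Cst3 161522_i_at was at -0.22 with RNA quality as a covariate. Without calorie restricted replicates 3, 4 and 5 it was at -0.082, and Timp3 was at -0.020. The cause was not tested. In limma the whole array gave 333 calls with RNA quality as a covariate, 0 with spike-in signal added (907 at an unadjusted p under 0.05), 540 with a replicate block, 558 without calorie restricted replicates 3, 4 and 5, 390 without 3 and 5 under quantile normalization, and 72 at an adjusted p under 0.01. With 1 array left out it gave 253 to 1251. The split was 306 higher and 577 lower, 322 and 279 under quantile normalization and 849 and 190 with array medians centred, where the median change was 0.20. Member calls were 2 in 4 of those 6 settings, 0 with both covariates (4 at an unadjusted p under 0.05) and 3 with the block, and 2 to 4 with 1 array left out: 2 without control replicate 2, 3 or 4 or calorie restricted replicate 3. Listed proteases and inhibitors gave 1 call each with quantile normalization, no filter, the filter at the 60th percentile, no variance trend, RNA quality as a covariate (higher there, lower in the others), and without calorie restricted replicates 3 and 5 or 3, 4 and 5. They gave 3, all higher, with array medians centred, 4 with array weights (1 higher and 3 lower), 0 with the replicate block (12 at an unadjusted p under 0.05), both covariates (9), no replicates 3 and 5 under quantile normalization (10) or an adjusted p under 0.01 (13), and 0 to 4 with 1 array left out. Over all 7453 tested probe sets, 2284 were at an unadjusted limma p under 0.05 with the replicate block and 907 with both covariates. There were 1830 without calorie restricted replicates 3 and 5 under quantile normalization, and 2352 in the main fit. With the replicate block 1 of 10 samples correlated best with its own number. Background was not measured, so the sizes of changes in dim probe sets are uncertain. The dimmest 1491 tested probe sets had a median log2 change of -0.42 and the brightest 1491 one of 0.13, from which no median was taken off. Relative changes take the same median off dim and bright probe sets.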
